A study of Mus musculus with 6 samples.

Results

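Ucp1, Elovl3, Cidea, Cox8b, Dio2 and Prdm16 are genes known for their part in brown fat, and here their signal was followed in the hearts of adrenalectomized and sham-operated mice. Their probes were taken as every noncontrol probe that the scanner files assign to one of these names, which gave 6 probes, 1 for each of the 6 genes, out of 41174 noncontrol probes and 28786 gene names on the array. The genes were chosen with the values of this comparison known, so their differences between groups are given as a description, and counts of them past a threshold support nothing. Heart RNA came from male C57BL/6 mice, a common inbred strain, and the labels name no engineered allele. In 3 mice the adrenal glands, the main source of corticosterone, aldosterone and circulating adrenaline, had been removed at 1 month of age. The 3 sham-operated mice kept their glands, and all hearts were taken 6 months after surgery, although another label calls the mice 6 months old. The labels call the mice biological replicates, and whether hormone or salt was replaced is not given in the sources used here. Each heart was hybridised to a 1-colour Agilent array of 60-base probes.

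The 6 arrays lay on 2 slides. Slide 2 held adrenalectomized replicates 2 and 3 and no sham array, and slide 1 held adrenalectomized replicate 1 with all 3 sham arrays. For the arrays of slide 2, slide and operation therefore cannot be told apart. Spots well above background made up 66.8% and 63.2% on slide 2, 60.5% for adrenalectomized replicate 1 and 57.7% to 60.2% for the sham arrays, and the 75th percentile of the signal ran from 644 to 924 intensity units. Levels below are log2 signals relative to the 75th percentile of their own array, so a level of 0 is the signal of that percentile. They can be compared between arrays for 1 gene, but not between genes. All 9 listed markers of heart muscle cells, such as Myh6 and Tnnt2, were above background on all 6 arrays, as heart tissue would have them.

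Brown fat burns fatty acids to make heat. Noradrenaline from sympathetic nerves acts on beta-adrenergic receptors of brown adipocytes, cyclic AMP rises, triglyceride is broken down, and uncoupling protein 1 (Ucp1) lets protons re-enter the mitochondrial matrix without making ATP. Dio2 amplifies this programme by converting thyroxine into the active hormone triiodothyronine inside the cell, Elovl3 elongates fatty acids for the lipid droplet, Cidea coats and enlarges droplets, Cox8b is a subunit of respiratory complex IV, and Prdm16 is a transcriptional coregulator of brown adipocyte identity. Heart muscle also has dense mitochondria and burns fatty acids, so Cox8b and several other mitochondrial genes are known from both tissues. In mice, brown fat also lies in the chest near the great vessels.

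The sequence by which Ucp1 was measured is shown because most of the account turns on that 1 probe. It lies on chromosome 8 of the mm7 mouse assembly, from 81866808 to 81866867, and reads in 1 of its 3 sense frames without a stop codon:
Ucp1 probe: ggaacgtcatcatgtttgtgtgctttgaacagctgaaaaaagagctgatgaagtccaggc
Promoter windows, the 250 bases before the annotated start in RefSeq on GRCm38.p6, were found for 4 of the 6 genes (Ucp1, Cox8b, Dio2 and Prdm16). The windows of Ucp1 (chr8:83290098-83290347, plus strand) and Dio2 (chr12:90739039-90739288, minus strand) are printed because both genes are known to respond to cyclic AMP, and capitals mark the motif matches described next.
Ucp1 promoter: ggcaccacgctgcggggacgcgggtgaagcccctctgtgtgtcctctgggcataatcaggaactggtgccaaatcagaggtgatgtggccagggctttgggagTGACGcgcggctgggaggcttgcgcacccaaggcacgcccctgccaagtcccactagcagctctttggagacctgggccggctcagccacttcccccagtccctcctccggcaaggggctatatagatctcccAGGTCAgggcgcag
Dio2 promoter: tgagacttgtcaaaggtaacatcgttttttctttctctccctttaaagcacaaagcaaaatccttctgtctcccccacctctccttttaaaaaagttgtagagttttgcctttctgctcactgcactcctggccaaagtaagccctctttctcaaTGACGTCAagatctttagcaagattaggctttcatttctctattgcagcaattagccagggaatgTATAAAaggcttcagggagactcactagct

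The motifs were searched on both strands. The full cyclic AMP response element, TGACGTCA, was found in the Dio2 window, 95 to 88 bases before the start, and is held by 1.55% of all 32851 windows of this length. Its shortened form TGACG, which overlaps the full element, was found once in the Ucp1 window, 147 to 143 bases before the start, and is held by 17.8% of windows. The nuclear receptor core site AGGTCA was found once for Ucp1, 14 to 9 bases before the start, and is held by 14% of windows, and the TATA box TATAAA was found for Dio2 (12.4% of windows). The windows of Cox8b and Prdm16 held none of these 4 motifs. A glucocorticoid response element, searched as AGAACA and TGTTCT with any 3 bases between them, and a direct repeat of AGGTCA with any 1 base between the copies were in none of the 4 windows. They are held by 0.00913% and 0.0335% of all windows.

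Ucp1 gave 14080, 72114 and 57510 intensity units on adrenalectomized arrays 1 to 3, against 1439, 5967 and 13060 units on sham arrays 1 to 3. As levels, these were 4.20, 6.42 and 6.16 in adrenalectomized hearts and 1.11, 3.21 and 3.82 in sham hearts. The groups did not overlap, but adrenalectomized replicate 1 lay just above sham replicate 3, while both slide 2 arrays lay far above the rest. The means were 5.59 ± 1.22 in adrenalectomized and 2.71 ± 1.42 in sham hearts (SD, n = 3 each), a log2 difference of 2.88 (SE 0.83) or 7.37-fold. Separated by slide, the 2 arrays of slide 2 were 12.0-fold above the sham mean (log2 difference 3.58), which is also the value without adrenalectomized replicate 1, and adrenalectomized replicate 1 was 2.80-fold above it (1.48). The sham hearts themselves spread widely, and without sham replicate 1, the lowest, the difference was 2.08, or 4.22-fold. In whole-heart RNA, more cells that express a gene and more RNA per cell cannot be told apart.

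Elovl3, the elongase that is strongly induced in brown fat by cold, had levels of -3.16, 0.83 and 0.65 on adrenalectomized arrays 1 to 3, and -6.52, -6.32 and -4.65 on sham arrays 1 to 3. It was well above background on all 3 adrenalectomized arrays and on none of the 3 sham arrays, so the probe entered the fit only through the group in which it was high, and the fold is a bound. The bound divides the mean of the adrenalectomized arrays by a sham mean in which each array counts with its measured Elovl3 signal or, if higher, the dimmest signal that was still well above background on that array. Elovl3 was at least 36.5-fold higher in adrenalectomized hearts. The slide 2 arrays were at least 89.9-fold above sham, and adrenalectomized replicate 1 was at least 6.02-fold above sham. The fitted difference, which uses the dim sham signals, was 5.27 (SE 1.09), and normexp background correction brought it to 1.5. Without adrenalectomized replicate 1 the fitted difference was 6.57, without replicate 2 it was 4.58 and without replicate 3 it was 4.67. Leaving out sham replicate 3 gave 5.86.

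Cidea had levels of 5.85, 7.38 and 7.04 on adrenalectomized arrays 1 to 3, against 5.58, 6.03 and 5.85 on sham arrays 1 to 3. Adrenalectomized replicate 1 lay within the sham range and the slide 2 arrays lay above all others. The group means were 6.76 ± 0.81 in adrenalectomized and 5.82 ± 0.23 in sham hearts (SD, n = 3 each), a difference of 0.94 (SE 0.38) or 1.91-fold. The slide 2 arrays were 2.62-fold above the sham mean, and adrenalectomized replicate 1 was 1.02-fold above it, a log2 difference of 0.03. The signal of the Cidea probe, 31970 to 53300 units on the slide 1 arrays, was not saturated on any array.

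Dio2 had levels of -2.13, -1.37 and -1.34 on adrenalectomized arrays and -2.40, -1.37 and -2.01 on sham arrays. The slide 2 arrays were the 2 highest, but sham replicate 2 all but equalled them, and adrenalectomized replicate 1 lay second from the bottom. The difference of 0.32 (SE 0.31) was about as large as its error. Within slide 1 it was -0.20, and normexp background correction gave -0.09.

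Cox8b and Prdm16 showed a different picture. Cox8b had levels of 8.02, 8.16 and 7.98 on adrenalectomized arrays and 8.34, 8.29 and 8.06 on sham arrays, all within 0.37 log2 units of each other. Its difference was -0.18 (SE 0.12), and normexp background correction gave 0.19. Prdm16 had levels of 1.19, 1.43 and 1.67 on adrenalectomized arrays, against 1.83, 1.83 and 1.36 on sham arrays. The groups overlapped, the difference was -0.24 (SE 0.18), and after normexp background correction it was 0.02. For neither gene did the slide 2 arrays stand apart from the slide 1 arrays.

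**Figure D1:**
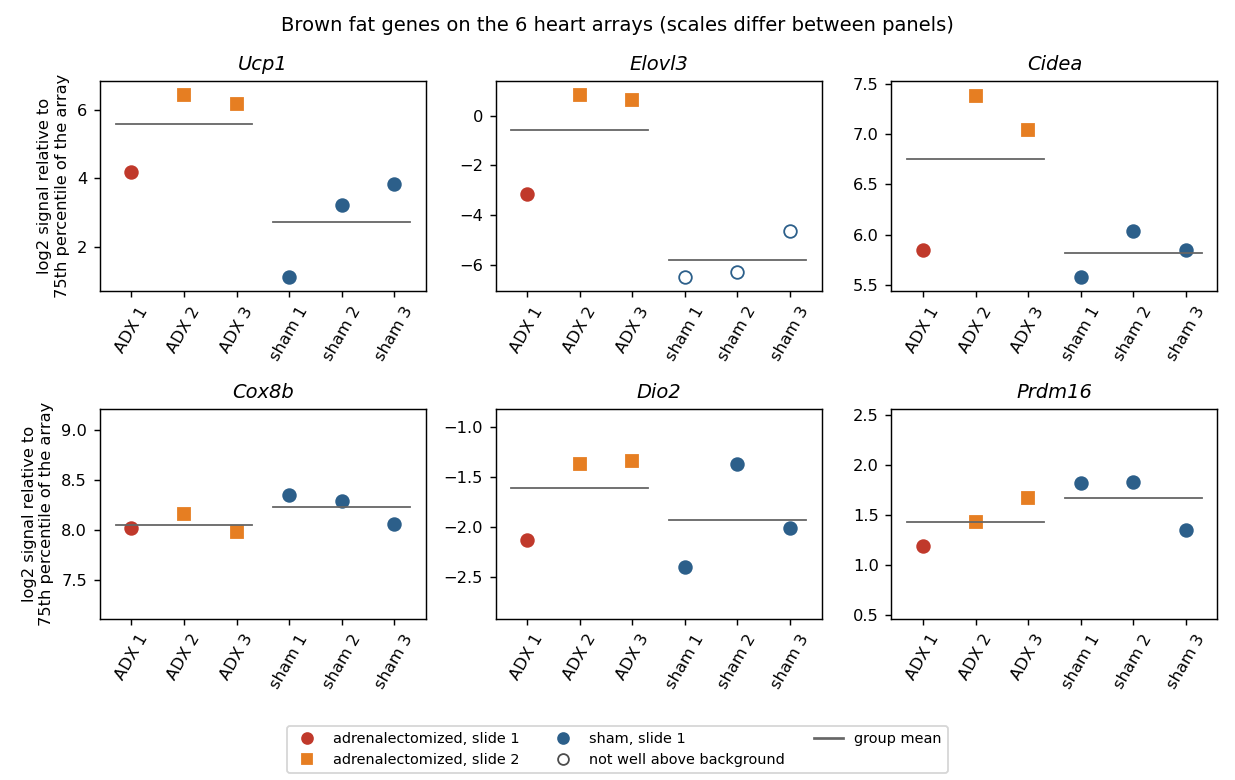
Levels of the 6 brown fat genes on each array, as log2 signal over that array's 75th percentile; adrenalectomized (ADX) arrays stand left of sham arrays, squares mark slide 2, open symbols mark spots not well above background, and grey lines are group means (n = 3). For Ucp1, Elovl3 and Cidea the slide 2 arrays lie above all others, while Cox8b stays within 0.37 log2 units over the 6 arrays.

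The plot of levels by array shows Ucp1 and Elovl3 in the same order from low to high: sham replicates 1, 2 and 3, then adrenalectomized replicates 1, 3 and 2. Cidea keeps adrenalectomized replicates 3 and 2 at the top but mixes the slide 1 arrays. In the limma fit over 16970 genes, adrenalectomized minus sham, 0 of the 6 genes had a Benjamini-Hochberg adjusted p under 0.05, as 0.0412% of all genes tested did (0.0295% higher and 0.0118% lower). Of all genes, 12.2% had an unadjusted p under 0.05 (6.26% higher and 5.99% lower), against which the list counts further on can be read. The fitted difference was above 0 for 4 of the 6 (56.6% of all genes). Groups did not overlap, with adrenalectomized hearts higher, for 2 of the 6 (10.4% of all genes), and with adrenalectomized hearts lower for 0 of the 6 (7.95%). Both slide 2 arrays lay above all 4 slide 1 arrays for 4 of the 6 (7.62% of all genes) and below them for 0 of the 6 (7.09%). These counts describe genes picked on the same arrays. With the slide as a block, which leaves adrenalectomized replicate 1 against the sham arrays, the differences were 1.48 (SE 0.97) for Ucp1, 2.67 (SE 0.70) for Elovl3, 0.03 (SE 0.24) for Cidea, -0.20 (SE 0.37) for Dio2, -0.21 (SE 0.18) for Cox8b and -0.48 (SE 0.24) for Prdm16. A single adrenalectomized array is assumed there to vary as the sham arrays do.

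The families to which these genes belong allow a comparison with relatives, which were not chosen as absent from brown fat. Ucp3 is also on the list, further on, of genes that brown fat shares with heart muscle. Of 20 relatives in the 6 families, 14 were tested, 0 had an adjusted p under 0.05 in limma, and 1 had an unadjusted p under 0.05. Ucp2 and Ucp3, the uncoupling protein genes of immune cells and of muscle among other tissues, differed by -0.01 (SE 0.26) and 0.49 (SE 0.27), with Ucp3 at 0.74 in adrenalectomized replicate 1 and 0.37 on slide 2 relative to the sham mean. The other mitochondrial carriers, Slc25a14 and Slc25a27, differed by 0.06 and -0.15. None of these 4 genes had both slide 2 arrays above the others, as Ucp1 and 7.62% of all genes did.

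Among the fatty acid elongases, Elovl1 differed by -0.03 (SE 0.11) and Elovl5 by 0.32 (SE 0.17). Elovl6, which elongates palmitate in lipogenic tissues, had levels of -0.29, 3.34 and 2.76 on adrenalectomized arrays and -1.44, -0.94 and 0.20 on sham arrays, a difference of 2.67 (SE 0.94, limma adjusted p = 0.350). Its slide 2 arrays were 3.78 above the sham mean, and adrenalectomized replicate 1 was 0.44 above it, within the sham range. Elovl2, Elovl4 and Elovl7 were not well above background on all arrays of either group and were not tested.

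Cidec, the droplet protein of white fat, followed the slides as Cidea did. Its levels were 2.81, 5.16 and 4.70 on adrenalectomized arrays and 0.75, 3.40 and 2.83 on sham arrays, a difference of 1.90 (SE 0.82, limma adjusted p = 0.418). On slide 2 it was 2.60 above the sham mean and in adrenalectomized replicate 1 it was 0.49 above it. Cideb, the family member of liver and gut, differed by 0.30 (SE 0.20). Cox8a, the widely expressed form of the subunit, differed by -0.03 (SE 0.12), and Dio3, which inactivates thyroid hormone, by -0.14 (SE 0.11). Prdm2 and Prdm4 differed by 0.16 and -0.01. The signs of Ucp2, Elovl1, Cideb, Cox8a and Prdm2 turned under normexp background correction, and that of Cox8a also under quantile normalization. Cox8c, Dio1 and Mecom stayed below the background limit throughout.

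**Figure D2:**
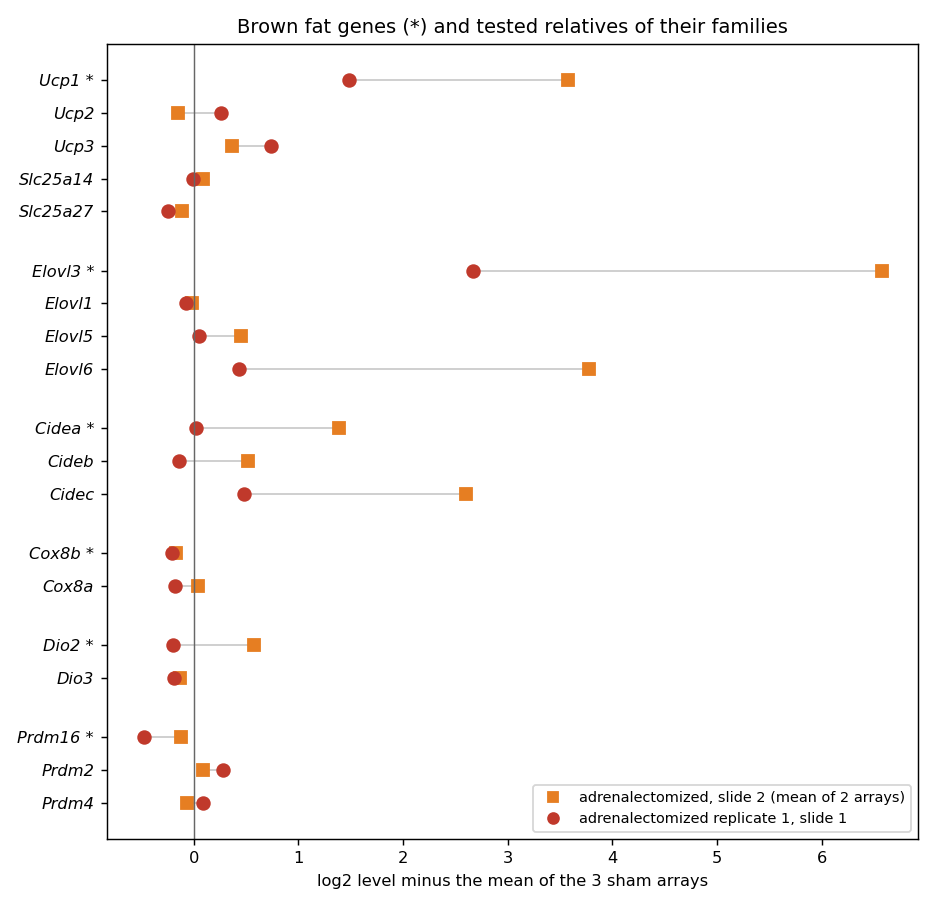
Log2 level minus the sham mean for the 6 brown fat genes (marked *) and tested members of their families; squares are the mean of the 2 adrenalectomized arrays of slide 2 and circles are adrenalectomized replicate 1 of slide 1. Slide 2 values above 2 are those of Ucp1, Elovl3, Elovl6 and Cidec, and their slide 1 values are smaller.

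The plot by family shows that, for the genes with large values on slide 2, adrenalectomized replicate 1 was always closer to the sham mean. Among relatives 4 of the 14 tested, Elovl5, Elovl6, Cideb and Cidec, had both slide 2 arrays above all slide 1 arrays (7.62% of all genes).

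The wider brown fat programme was followed in a list of 23 regulators and thermogenic genes. Of these, 17 were tested, 11 with higher and 6 with lower values in adrenalectomized hearts, 0 with an adjusted p under 0.05 and 7 with an unadjusted p under 0.05 (4 higher, 3 lower). Their median difference was 0.07, beside 0.03 for all genes tested. Adrb3 (the beta-3 adrenergic receptor of adipocytes), Zic1 and Lhx8 (transcription factors known from interscapular brown fat), Fgf21, Bmp8b and Gyk did not rise well above background on the 6 arrays. Ebf2, a factor that directs brown adipocyte fate, differed by 0.07 (SE 0.15).

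Within that list, Slc27a2, a fatty acid transporter and acyl-CoA synthetase, differed most, with levels of -3.24, -1.27 and -1.23 on adrenalectomized arrays and -5.21, -3.79 and -4.27 on sham arrays. Its groups did not overlap (difference 2.51, SE 0.60, limma adjusted p = 0.231), although it was above background on only 1 sham array. The Slc27a2 probe thus entered the fit only through the adrenalectomized group, and normexp background correction brought the difference to 0.01. Nrg4, a growth factor released by brown fat, differed by 0.96 (SE 0.33, limma adjusted p = 0.342), with 1.28 on slide 2 and 0.31 in adrenalectomized replicate 1. Cebpb, a transcription factor named after its values were seen, differed by 0.60 (SE 0.21, limma adjusted p = 0.352), also without overlap between the groups. Otop1 differed by 2.40 (SE 0.88, limma adjusted p = 0.362). Other genes of the list had lower values. Ppargc1a, the coactivator of mitochondrial biogenesis, differed by -0.86 (SE 0.29, limma adjusted p = 0.330). The thyroid hormone receptor genes Thra and Thrb differed by -0.58 (SE 0.16) and -0.51 (SE 0.16), with limma adjusted p = 0.270 and 0.30. Groups did not overlap for 6 of the 17 tested genes of the list, beside 18.3% of all genes. Of these, Slc27a2, Nrg4 and Cebpb were higher, and Thra, Thrb and Ppara were lower. For Ppargc1a, Thra and Thrb adrenalectomized replicate 1 lay further from the sham mean, at -1.17, -0.82 and -0.74, than the slide 2 arrays, at -0.70, -0.46 and -0.39.

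Genes of the signalling that drives heat production were tested in a list of 12, of which 11 passed the filter, 0 had an adjusted p under 0.05 and 2 had an unadjusted p under 0.05. The median difference was 0.06, with 6 higher and 5 lower. Prkar2b, a regulatory subunit of protein kinase A abundant in fat, had levels of 2.05, 4.17 and 4.07 on adrenalectomized arrays and 0.65, 2.11 and 1.96 on sham arrays (difference 1.85, SE 0.64, limma adjusted p = 0.342). Lipe, hormone-sensitive lipase, differed by 0.62 (SE 0.26, limma adjusted p = 0.401). The heart's own receptor gene Adrb1 differed by -0.20 (SE 0.12).

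Mitochondrial and fatty acid oxidation genes that brown fat shares with heart muscle differed little in their median. All 15 were tested, 8 with higher and 7 with lower values, and 0 had an adjusted p under 0.05. The median difference was 0.04, and 0 of the 15 had both slide 2 arrays above all slide 1 arrays (7.62% of all genes). Cox6a2, the muscle form of another complex IV subunit, was the 1 gene with an unadjusted p under 0.05 (difference -0.32, SE 0.13, limma adjusted p = 0.403). Cpt1b, which admits fatty acids to mitochondria, differed by 0.04 (SE 0.12), and Fabp3, the fatty acid binding protein of heart, by -0.05 (SE 0.14). These small differences depended on the background correction: under normexp all 15 were higher, with a median of 0.34, and Cox6a2 stood at 0.04.

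The listed adipocyte markers, some of them better known from white fat or from lipogenesis, were highest on slide 2 in their median. All 18 listed genes passed the filter, all 18 had higher values in adrenalectomized hearts, 0 had an adjusted p under 0.05 and 5 had an unadjusted p under 0.05. Their median difference was 1.01 (0.95 under normexp, with 15 of the 18 higher). Both slide 2 arrays lay above all slide 1 arrays for 14 of the 18 (7.62% of all genes). Measured from the sham mean, their median stood at 0.14, 1.88 and 1.20 on adrenalectomized arrays, against -0.89, 0.26 and 0.25 on sham arrays. Sham replicate 1, the lowest array for Ucp1, was also the lowest for these markers. Their summed level relative to the 75th percentile was 527, 1201 and 978 on adrenalectomized arrays 1 to 3 and 442 to 565 on sham arrays. Adrenalectomized replicate 1 thus lay within the sham range, and only the slide 2 arrays lay above it. Such a sum is weighted towards the brightest probes, such as that of Fabp4. Lep, which encodes leptin, was the 1 marker below background on a sham array. The part of these markers in the differences of Ucp1, Elovl3 and Cidea was not tested.

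Plin1, the perilipin of fat droplets, had levels of 1.99, 4.13 and 3.74 on adrenalectomized arrays and 0.33, 2.36 and 1.81 on sham arrays (difference 1.79, SE 0.68, limma adjusted p = 0.375). On slide 2 it stood 2.44 above the sham mean and in adrenalectomized replicate 1 it stood 0.49 above it, beside 3.58 and 1.48 for Ucp1. Fasn, fatty acid synthase, differed by 2.22 (SE 0.79, limma adjusted p = 0.353), Thrsp, which promotes lipogenesis, by 1.91 (SE 0.61, limma adjusted p = 0.311), and Cebpa, a transcription factor of adipocyte differentiation, by 1.10 (SE 0.42, limma adjusted p = 0.377). The adiponectin gene Adipoq, chosen after its values were seen as a marker made almost wholly by fat cells, had levels of 1.77, 3.81 and 3.34 on adrenalectomized arrays and 0.22, 2.53 and 1.99 on sham arrays. Both slide 2 arrays lay above all others for Adipoq, and adrenalectomized replicate 1 lay within the sham range.

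**Figure D3:**
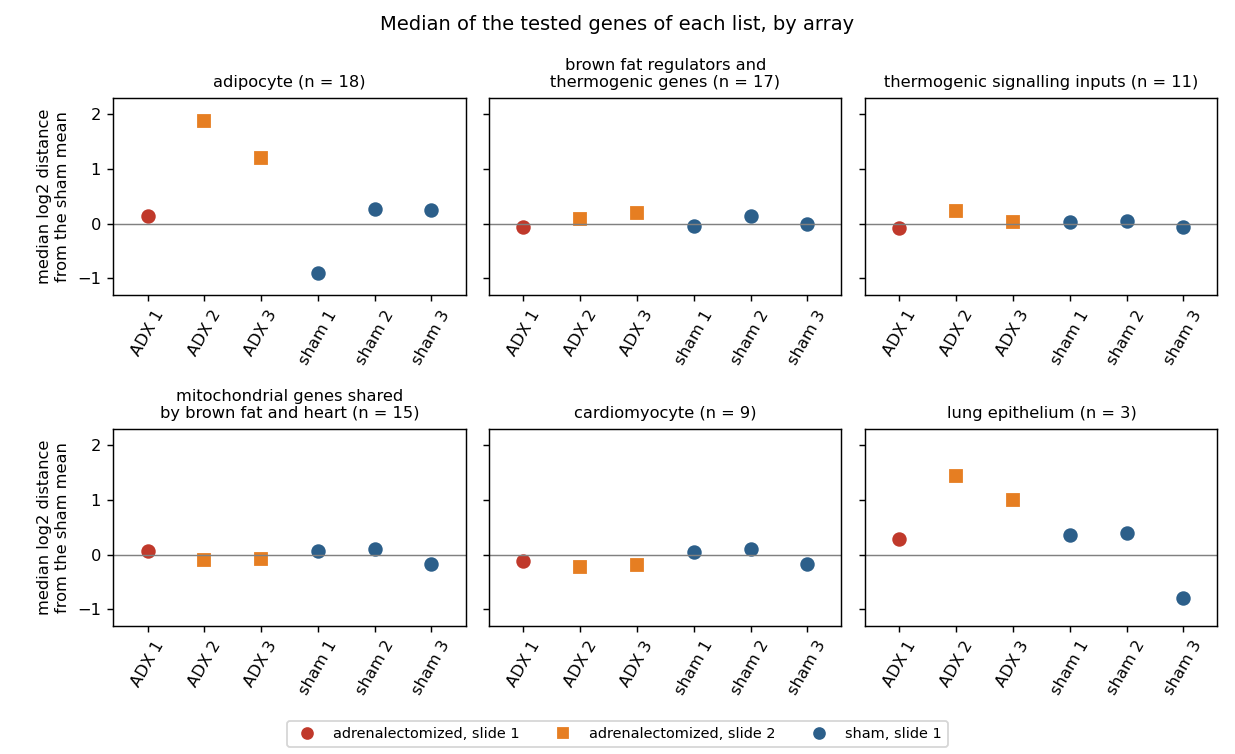
Median log2 distance from the sham mean over the tested genes of 6 lists (n in each title), by array, with adrenalectomized (ADX) arrays left of sham arrays and squares for slide 2. Adipocyte and lung epithelium lists are highest on the slide 2 arrays, while the shared mitochondrial list stays between -0.18 and 0.10.

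Markers of lung epithelium, another tissue of the chest, varied among the slide 2 arrays. Of 7 lung epithelium markers, 3 were tested, 0 had an adjusted p under 0.05 and 1 had an unadjusted p under 0.05. All 3 were higher (median 0.91), but only 1 was under normexp (median -0.89), and Sftpb was below background throughout. Each of the 3 passed the filter through the adrenalectomized group alone. Epcam was above background on 0 sham arrays, and Scgb1a1 and Cldn18 on 2 of 3. Scgb1a1, the secretoglobin of airway club cells, had levels of -3.58, 4.93 and 2.84 on adrenalectomized arrays, against -3.52, -3.93 and -4.19 on sham arrays (difference 5.28, SE 1.95, limma adjusted p = 0.364). Sftpd, encoding a surfactant protein and named after its values were seen, was well above background on both slide 2 arrays and on no other array. Sftpc, Cldn18 and Nkx2-1, also named with their values known, did not follow it. Sftpc, another surfactant protein gene, had levels of -4.64, 2.68 and -5.16 on adrenalectomized arrays and -5.33, -5.95 and -6.54 on sham arrays, and was well above background on adrenalectomized replicate 2 alone. Cldn18 differed by 0.21 (SE 0.41), with adrenalectomized replicate 3 at -3.49 below 2 of the sham arrays, and Nkx2-1 was lowest on that replicate (-6.78). The summed level of the list was 0.286, 37.6 and 7.51 on adrenalectomized arrays 1 to 3 and 0.164 to 0.315 on sham arrays. For adrenalectomized replicate 1 this sum lay within the sham range, as its adipocyte sum did. The part of lung RNA in the brown fat differences was not tested.

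In the remaining marker lists 0 genes had an adjusted p under 0.05, and their part in the brown fat differences was not tested. The 7 tested skeletal muscle genes were all lower (6 of the 7 under normexp), with a median of -0.39 and 2 at an unadjusted p under 0.05, and Tnni2 (fast skeletal troponin I) differed by -1.15 (SE 0.23, limma adjusted p = 0.198) and Actn3 by -0.39 (SE 0.15). Their summed level, over the 8 genes with a value on all arrays, was 1.61 to 2.59 in adrenalectomized and 3.13 to 4.76 in sham hearts. Of the 9 cardiomyocyte genes, 7 were lower (median -0.17, 2 at an unadjusted p under 0.05), but 2 under normexp (median 0.21), with Nppa, atrial natriuretic peptide, at -0.70 (SE 0.18, limma adjusted p = 0.243) and Tnni3 at -0.29 (SE 0.12). Of the 7 tested thymocyte and T cell genes, 5 were higher and 2 lower (median 0.33, 3 at an unadjusted p under 0.05), but the median was -0.79 under normexp. The lower ones, Cd3e at -0.22 (SE 0.38) and Cd8b1 at -0.13 (SE 0.22), were named after their values were seen. Dntt stood at 0.86 (SE 0.32), Cd8a at 0.76 (SE 0.30) and Cd3g at 0.33 (SE 0.12), but at -0.56, -1.22 and -0.79 under normexp. Cd8a was above background on only 1 sham array and entered the fit through the adrenalectomized group alone. Rag1 and Ptcra were below background on all arrays. Red cell genes were high in adrenalectomized replicates 1 and 2 and low in replicate 3 (medians 1.44, 1.39 and -0.53), with Slc4a1 at 0.92 (SE 0.53) and Alas2 at 0.77 (SE 0.52). Neither the 3 tested red cell genes nor the 4 mesothelial genes held 1 with an unadjusted p under 0.05. Mesothelial genes had a median of 0.03 (-0.02 under normexp), with Upk3b at -0.33 (SE 0.18) and Wt1 at 0.06 (SE 0.18). The 5 sympathetic neuron genes were too dim to be tested, and Slc6a2 was among those below the background limit throughout.

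The genes whose pattern was most like that of Ucp1 were sought among 309 other genes that have a current symbol and values on all 6 arrays and whose levels spanned at least 2 log2 units. Symbol or not, 2.76% of all genes tested had such a span. The 10 with the highest Pearson r with Ucp1 over the 6 arrays were Gys2 (0.989), Clstn3 (0.987), Cebpa (0.982), Otop1 (0.980), Cpn2 (0.979), A530053G22Rik (0.975), Spib (0.975), Prkar2b (0.973), Krt79 (0.970) and Cdo1 (0.969). Otop1 encodes a proton channel, Gys2 the liver form of glycogen synthase and Cdo1 a cysteine-degrading enzyme abundant in fat and liver. Elovl3 had an r of 0.939 and was the 26th gene of this pool, while Cidea (0.896), Dio2 (0.737), Prdm16 (-0.414) and Cox8b (-0.698) spanned less than 2 log2 units. The 6 arrays share their 2 slides and fall into separate levels, so r only describes how closely levels follow those of Ucp1 over these arrays.

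Gys2, the first of these, had levels of -2.03, 1.20 and 0.57 on adrenalectomized arrays, against -4.55, -2.67 and -2.15 on sham arrays. Otop1 had levels of -3.30, -0.51 and -1.57 on adrenalectomized arrays and -5.69, -3.99 and -2.90 on sham arrays, where 1 of 3 was above background. Gys2, A530053G22Rik and Spib were above background on 2 of 3 sham arrays. Like Otop1, they entered the fit only through the adrenalectomized group, and their sham levels include signals under the background limit. For all 10 genes the slide 2 arrays were further above the sham mean (1.40 to 4.01) than adrenalectomized replicate 1 was (0.27 to 1.09).

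**Figure D4:**
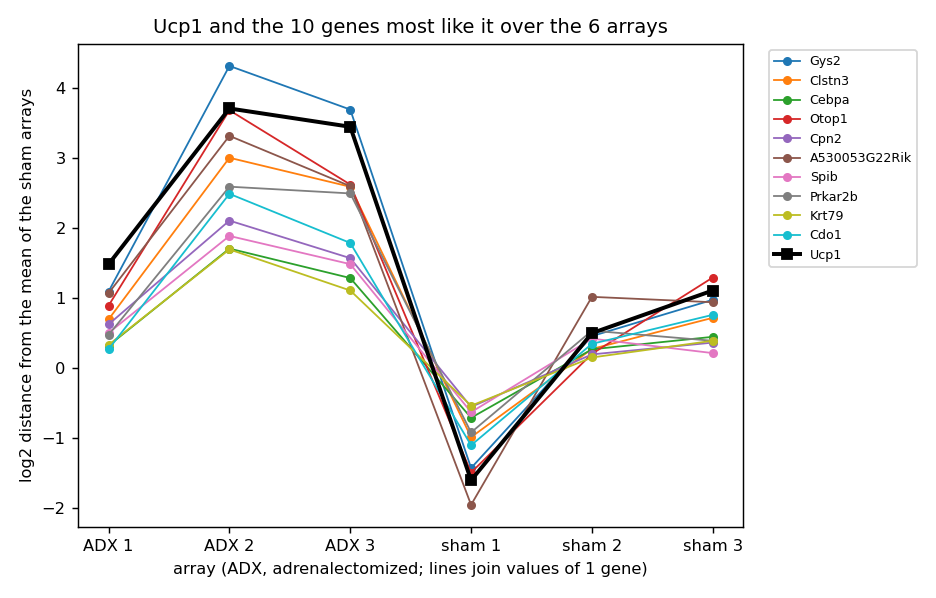
Log2 distance from the sham mean on each array for Ucp1 (black squares) and the 10 genes most like it by Pearson r over the 6 arrays, with adrenalectomized (ADX) arrays left of sham arrays. All 11 lines have their highest values on adrenalectomized arrays 2 and 3 and their lowest on sham replicate 1.

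The plot of these genes makes clear that likeness to Ucp1 rests on both ends of its range, the high slide 2 arrays and the low sham replicate 1. The design places the Elovl3 probe on mm7 chromosome 19 from 46031906 to 46031965, the Cox8b probe on chromosome 7 from 137316216 to 137316275 and the Dio2 probe on chromosome 12 from 88205395 to 88205454. The Prdm16 probe is placed on chromosome 4 and the Cidea probe on chromosome 18. Which exon each probe lies in is not given, since no annotation on that assembly was used.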

How the data were processed

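Heart RNA (50 ng) was amplified and Cy3-labelled, per the labels' protocols. The authors read the scans with Agilent Feature Extraction 9.5.3.1 (9.5 per the submitters' processing notes), per the file headers. The deposited processed signal is a linear intensity from which background was subtracted and spatial trends were removed array by array, without normalization between arrays. All 45018 spots had an equal intensity in the deposited value table, with column medians of 75.1, 92.2 and 80.9 for adrenalectomized and 70.8, 68.1 and 84.4 for sham samples. It is thus linear, uncentred and without a direction.

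Signals were taken as log2 and the 75th percentile of noncontrol spots was subtracted. Left out were control spots and 80 to 133 spots per array that the scanner software marked as outliers, none of them of the 6 genes. Of 41174 probes, 22951 were named through RefSeq accessions and the others kept the file's name. A probe was tested when well above background on all 3 arrays of a group, and a gene was represented by its brightest tested probe, giving 16970 genes. Differences were fitted with lmFit and eBayes in limma 3.58.1 (R 4.3.3), and p-values were adjusted by Benjamini-Hochberg over these genes and called under 0.05. A printed SE is from that fit. The number of arrays limits the precision (median SE 0.14). Figures used Python 3.11.15 and matplotlib 3.10.9. The fit was tested on simulated data. A few listed genes, counted in their lists, are not reported here by name.

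The 6 genes and all lists were chosen with earlier results of these data known. From each list, tested genes with an unadjusted p under 0.05 (at most 5) or the 2 of smallest p were named, besides the families and the genes most like Ucp1; others named as examples, such as Ebf2, Adrb1, Cpt1b and Fabp3, were picked with their values in view. The settings varied were the background correction (normexp, offset 50), other scalings, the deposited table, other filters, the mean of probes, outlier spots kept, slide and replicate blocks, slide 1 alone, other variance models and each array left out.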

Additional observations from a re-analysis of the deposited data

How the results depend on the processing

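Over 21 alternatives (20 for Elovl3, whose probe the filter on all 6 arrays removes), Ucp1, Elovl3 and Cidea kept their direction, with differences of 1.48 to 3.96, 1.5 to 6.57 and 0.03 to 1.39. With normexp background correction Ucp1 differed by 3.098 and Cidea by 1.32, beside 1219 higher and 4751 lower genes of all 16970, and Elovl3 differed by 6.13 with array weights. Whether these 3 genes passed a threshold varied with such settings and is not read, since the same values chose them. Normexp reversed Cox8b (0.19), Dio2 (-0.0859) and Prdm16 (0.0218), and Dio2 was also reversed within slide 1, alone or as a block (-0.20 in both). With single arrays left out, the differences ran from 2.08 to 3.58 for Ucp1, 4.58 to 6.57 for Elovl3, 0.62 to 1.39 for Cidea, -0.26 to -0.12 for Cox8b, 0.08 to 0.59 for Dio2 and -0.40 to -0.12 for Prdm16. The causes were not tested.

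Over all genes, limma called 5 higher and 2 lower. Higher genes numbered 2 after quantile normalization, 3 after median centring, 41 on slide 1 alone, 47 with array weights, and 0 each with a percentile over detected probes, no filter, probes above background on all 6 arrays, the mean of probes, outlier spots kept and the slide as a fixed block, where 879 to 1124 genes were higher at an unadjusted p under 0.05. Lower genes numbered 5 after median centring, 7 with a variance trend and robust estimation, 50 with array weights, and 1 each with no filter, probes above background on all 6 arrays and the slide as a fixed block. Leaving out single arrays gave 0 to 39 higher genes (39 without adrenalectomized replicate 1) and 1 to 6 lower genes (6 without sham replicate 2). With the replicate block there were 0 higher genes (1046 at an unadjusted p under 0.05) and 1 lower gene. Ucp1 then differed by 2.88 with an SE of 0.21, beside 0.83 without the block. Deviations of same-numbered arrays from their group means had r = 0.16, 0.16 and -0.16, and those of other pairs ran from -0.31 to 0.18. With 3 arrays per group such values cannot settle whether equal numbers mean a pairing, and the labels name none. The sham signal of Elovl3 was not well above background, so no fold is given for it.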
